A study of Mus musculus with 6 samples.

Results

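Short exonic circular RNAs without an entry in circBase, a public catalogue of circular RNAs, were described in GC-2 cells exposed to bisphenol A (BPA). They were taken from the deposited circular RNA (circRNA) table as the rows typed exon, with no circBase entry, whose back-splice sites lay at most 1000 bases apart. The rule used no measured value. It took 821 of 9158 circRNAs, from 734 host genes, and these are called the short unlisted circles here. Unlisted means without an entry in the deposited table. The circBase names there begin with mm9, an earlier mouse build, and the sources used here do not say how they were matched, so some of the 821 may have an entry under other coordinates. Of the other exonic circRNAs, 89 were as short and had a circBase entry, 7316 were longer without an entry and 615 were longer with one. The remaining 317 were not typed exon. At the limit, circles of Atxn2 (1000 bases, 2 events with vehicle and 4 with BPA) and Chd9 (997 bases, 3 and 0 events) were taken, and circles of Kank2 (1003 bases, 0 and 2 events) and Utp20 (1004 bases, 4 and 5 events) were not.

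The line, GC-2 spd(ts), was derived from mouse spermatocytes, germ cells of the testis in meiosis. Cells were kept for 12 h without serum and then for 48 h in complete medium containing BPA at 120 µM, a plastic monomer with estrogenic activity, or 0.1% dimethyl sulfoxide, the vehicle of the controls. RNA of each culture was shared among 3 libraries, for circRNA (ribosomal RNA removed, linear RNA digested with the exonuclease RNase R), microRNA and mRNA. There were 6 libraries, 1 of each kind per group. No difference between vehicle and BPA therefore has a replicate check, and anything else that differed between the cultures cannot be told apart from BPA. The circRNA libraries held 12909 back-splice events with vehicle and 17586 with BPA, where an event is the unit recovered from the deposited log2 values. A count of 0 allows up to 3 events, 0.0232% of the vehicle library and 0.0171% of the BPA library. All intervals here are exact 95% intervals that cover counting error only. Of 13 spermatocyte and germ cell markers, 4 were listed in the mRNA table (Ddx4, Sycp3, Meioc and Piwil2), with 16 reads in all with vehicle and 22 with BPA. Ddx4 was at 0 with vehicle, and Sycp3 and Meioc were at 0 with BPA. Of 9 fibroblast and peritubular markers 8 were listed, with 188513 and 104275 reads. The share of these markers in the circRNA differences was not tested.

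A circRNA forms when the spliceosome joins the 5′ splice site at the end of an exon to the 3′ splice site at the start of the same or an earlier exon. The product has no free ends, which protects it from exonucleases such as RNase R. Back-splicing is known to favour exons flanked by long introns, often exon 2 of a gene, and competes with linear splicing of the same transcript. A separate class, the circular intronic RNAs, are excised intron lariats that escape debranching and lose the tail after the branch point, a position a short distance before the intron's end.

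Junctions are shown first because they are the only bases that tell a circle from its linear transcript. They are those of short unlisted circles in coding sequence with the most events, or with large differences among circles of at least 10 events. Each line gives the last 15 bases of the circle in lower case and its first 15 bases in capitals, 5′ to 3′ on the strand of the host, read from GRCm38.p6, the build of the files. The circles lie at chr17:42377160-42377640 (Ptchd4, plus strand), chr5:137311874-137312233 (Trip6, minus strand), chr8:3258383-3258934 (Insr, minus strand), chr6:134541652-134542045 (Lrp6, minus strand), chr2:91562754-91563113 (Ckap5, plus strand), chr15:98528863-98529453 (Kansl2, minus strand) and chr8:61329219-61330018 (Sh3rf1, plus strand).
Ptchd4: ctttcttcgccatggGATGGGAGGAACAGT
Trip6: gagagctgctatgtgGGCCCCTTAGGCCAA
Insr: gtcattgtcagaaagTGTGCCCTGGTATGG
Lrp6: agatccatcaagtggCGGCCCCTTTGTTGC
Ckap5: gctgctctacttaagGTTGTGCCAACAATT
Kansl2: ggggctgctcaacagACATGCTGGTGTCTA
Sh3rf1: atttcatacgtggagGGAATACCTCAGTTA

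The ends of these circles in the genome carry the splice signals. The first line of each pair gives 12 bases before the circle and its first 10 bases, with the 2 bases just before the circle in capitals, and the second its last 10 bases and the 12 that follow, with the 2 bases just after it in capitals. Ptchd4 is a circle of 1 exon and Ckap5 one of 2 exons. For the circles of Lats2 (chr14:57733878-57734418, minus strand) and Myh10 (chr11:68699210-68699585, plus strand), the 2 with most events among those higher with BPA, only the downstream end is shown.
Ptchd4 upstream: tctgttttcaAGgatgggagga
Ptchd4 downstream: ttcgccatggGTaactatccat
Ckap5 upstream: catcttttacAGgttgtgccaa
Ckap5 downstream: tctacttaagGTaattgggggt
Lats2 downstream: atgtgaccagGTgggtccaggt
Myh10 downstream: acttatctatGTgagtatttct

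These circles are bounded by AG before and GT after, the letters of a 3′ and a 5′ splice site. The same held for 762 of the 766 short unlisted circles whose ends both lay on exon edges of 1 annotated transcript (GENCODE release M21), and for 89 of 89 short circles with a circBase entry. Only 1 of the 766 used a terminal exon of its reference transcript, the longest matched protein-coding transcript or, without one, the longest matched.

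Described as mostly single-exon circles, they were not so by count. Of the 821, 279 (34.0%) were 1 annotated exon, 375 (45.7%) spanned 2 exons, 91 spanned 3, 17 spanned 4 and 4 spanned 5, while 55 (6.70%) had ends off exon edges. By events the 1-exon circles were 51.5% of the total. With protein-coding transcripts only, 260 (31.7%) were 1 exon. Among the 89 short circles with a circBase entry, 45 (50.6%) were 1 exon, 36 spanned 2 exons and 8 spanned 3. Some 1-exon calls rest on a transcript that keeps an intron, since the circles of Eif4a2, Gas5 and Rack1 hold 2 exons in their reference transcripts. Rack1 was named after its values were seen.

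**Figure D1:**
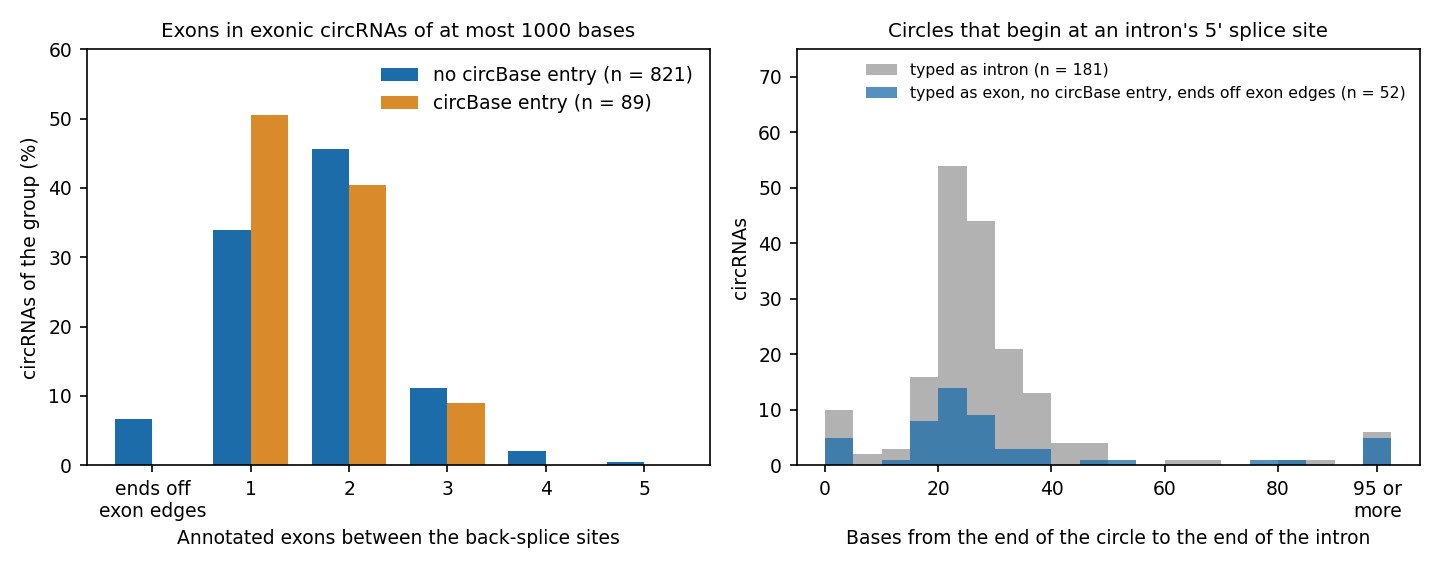
Left, share of circles (%) by the number of annotated exons between the back-splice sites, for short exonic circRNAs without (n = 821) and with (n = 89) a circBase entry; 2 exons is the highest bar of the first and 1 exon that of the second. Right, number of circRNAs by the distance in bases from the end of the circle to the end of the intron, in bins of 5 bases with all distances of 95 or more in the last, for circles that begin at an annotated 5′ splice site; the 52 typed exon and the 181 typed intron are both most frequent between 20 and 25 bases.

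Circles that span 2 or more exons are small once spliced by the rule itself, since the spliced length cannot exceed the span limit of 1000 bases. The span ran from 92 to 1000 bases with a median of 547 (quartiles 379 and 741), and the spliced length, with the introns inside taken out as annotated, had a median of 320 bases. Whether those inner introns were removed is not measured by a back-splice event. The 2 spliced circles below show such pairs of exons, in lower case the first and in capitals the second, beginning at the back-splice site. Trip6, a LIM-domain adaptor of the zyxin family at cell adhesions, had the most events of any short unlisted circle that spans 2 or more exons in every listed transcript, and its circle joins exons 5 and 6 (94 and 170 bases). Ckap5, the microtubule polymerase known as chTOG, had the largest difference toward vehicle among short unlisted circles with 10 or more events. Its circle joins exons of 90 and 165 bases, from exon 10 of the gene.
Trip6: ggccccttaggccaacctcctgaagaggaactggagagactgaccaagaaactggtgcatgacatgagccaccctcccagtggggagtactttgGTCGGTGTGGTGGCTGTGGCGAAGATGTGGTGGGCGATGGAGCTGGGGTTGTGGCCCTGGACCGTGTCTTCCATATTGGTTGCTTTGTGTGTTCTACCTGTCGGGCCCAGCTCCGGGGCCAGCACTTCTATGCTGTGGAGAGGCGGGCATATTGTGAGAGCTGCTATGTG
Ckap5: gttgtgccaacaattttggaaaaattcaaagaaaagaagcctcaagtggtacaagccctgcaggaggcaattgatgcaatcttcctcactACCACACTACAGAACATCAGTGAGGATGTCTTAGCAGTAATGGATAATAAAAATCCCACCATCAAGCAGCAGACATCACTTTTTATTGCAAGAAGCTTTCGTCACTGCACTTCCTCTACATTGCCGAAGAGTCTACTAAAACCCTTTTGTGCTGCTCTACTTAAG

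The 55 circles off exon edges lay mostly on introns. Of these, 52 began exactly at the 5′ splice site of an annotated intron and ended inside that intron or at its end, and 51 of the 55 began with GT. Only 4 covered the whole intron. The other 48 ended a median of 24.5 bases before the intron's end (quartiles 20 and 34.25, range 1 to 2058), and 40 of the 52 ended 10 to 60 bases before it. None of the 766 circles on exon edges began at a 5′ splice site, which is nearly settled by their definition, since they begin at an exon start. These classes and the window of 10 to 60 bases were chosen after the values were seen.

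The same geometry was present in the circRNAs that the deposited table itself types as intron. Of those 183, 181 began at an annotated 5′ splice site, and the 178 that did not cover their whole intron ended a median of 25 bases before its end (quartiles 21 and 31). What differed was the annotation around them. Of the 55 short unlisted circles off exon edges, 53 lay inside an exon that the annotation gives to some transcript, against 3 of the 183 typed intron. Of the 39 longer unlisted exonic circles off exon edges with a single annotated strand, 1 began at a 5′ splice site.

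The ends of 3 of these circles are shown, those of Dusp1 (chr17:26506671-26506984, minus strand), a phosphatase that acts on MAP kinases, Polr2e (chr10:80036620-80036763, minus strand), a subunit shared by the nuclear RNA polymerases, and Rpl37a (chr1:72711324-72711649, plus strand), a protein of the large ribosomal subunit. Dusp1 had 0 events with vehicle and 3 with BPA, and the other two had 1 event in each library. They were chosen after their values were seen. The first line gives 10 bases before the circle and its first 10 bases with the opening GT in capitals, and the second the last 10 bases of the circle and the bases that follow up to the intron's end, whose AG is in capitals. The circles end 20, 21 and 22 bases before the end of their introns.
Dusp1 start: gacttcatagGTaaatggaa
Dusp1 end: ttttgagtaacccataactttattttccAG
Polr2e start: gcgagggcagGTgagaagcc
Polr2e end: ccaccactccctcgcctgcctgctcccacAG
Rpl37a start: cggcgacatgGTgagtgtct
Rpl37a end: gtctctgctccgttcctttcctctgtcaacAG

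Circles off exon edges were rare and shallow. Together the 55 had 32 events with vehicle and 40 with BPA, none had more than 4, and 5 were seen in both libraries. Their share of all events was 0.248% with vehicle (0.170% to 0.350%) and 0.227% with BPA (0.163% to 0.310%). Hosts encoding ribosomal proteins gave 7 of the 55. Hosts with symbols of the same form (Rpl or Rps and a digit) gave 7 of the 766 on exon edges. Among these is Rps6kc1, which does not encode a ribosomal protein. The circle with the most events was in Rpl9, where 777 bases from the start to the end of an intron had 0 events with vehicle and 4 with BPA.

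The 766 circles on exon edges came mostly from coding sequence. In the reference transcript 628 (82.0%) held coding sequence only, 109 (14.2%) held the start codon, 9 the stop codon, 7 lay in the 5′ UTR and 1 in the 3′ UTR, and 12 were in non-coding transcripts. Of the 1-exon circles 83 of 279 (29.7%) held the start codon, against 26 of 487 (5.34%) of those with 2 or more exons. The first exon of the circle was exon 2 of the gene in 134 of 279 1-exon circles (48.0%) and in 73 of 487 circles of more exons. The share starting at exon 2 was 27.0% of the 766 and 46.1% of short circles with a circBase entry, and it was found in 2330 of 7270 longer unlisted ones. The spliced length was a multiple of 3 in 268 of 766 (35.0%). Median GC content was 51.1%, against 52.1% in short circles with a circBase entry and 47.2% in longer unlisted circles. No test was made of these differences in structure.

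Flanking introns had larger medians around 1-exon circles than around circles of more exons, and so did the other introns of their transcripts. The span limit admits circles of several exons only where the introns inside them are short. Exon position was not held equal between these classes. The intron before a 1-exon circle had a median length of 9468.5 bases and the one after it 7846, while the median other intron of the same transcripts was 2030 bases. For circles of 2 to 5 exons the medians were 2075 and 1777 bases, against 1023 for the other introns. Among 1-exon circles starting at exon 2 they were 15427 and 12680 bases. In 476 of 737 circles with other introns to compare (64.6%), both flanking introns were longer than the transcript's median other intron. This held for 69.6% of 1-exon circles and 61.8% of those of 2 to 5 exons. It held for 65.2% of longer unlisted circles and 72.1% of short circles with a circBase entry. The circle of Ptchd4 stands between introns of 59919 and 124641 bases. That of Trip6 stands between introns of 472 and 1042 bases, and that of Eif4a2 between 236 and 239, so long flanking introns were not common to all of the most abundant short circles.

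**Figure D2:**
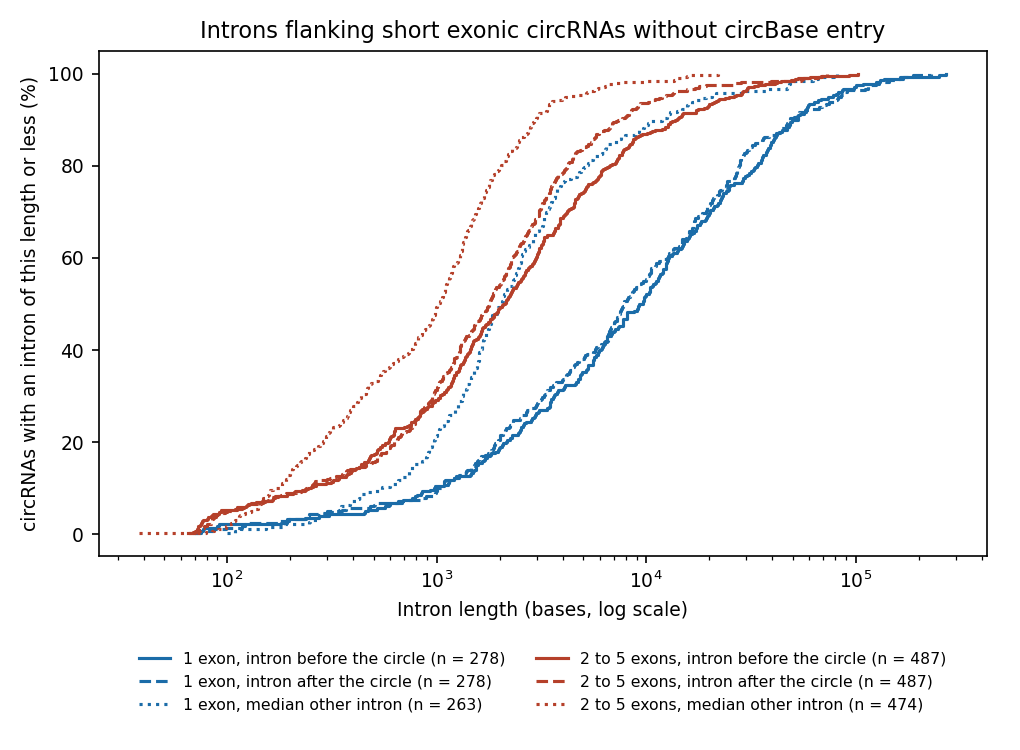
Cumulative share of short unlisted circles (%) against the length in bases, on a log axis, of the intron before the circle, the intron after it and the median other intron of the transcript, for circles of 1 exon and of 2 to 5 exons. The curves for introns flanking 1-exon circles lie farthest to the right, with medians of 9468.5 and 7846 bases.

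Most short unlisted circles were seen once. With vehicle 450 were detected and with BPA 541, 170 (20.7%) were in both libraries, 478 (58.2%) had 1 event in all and 32 (3.90%) had 10 or more. Short circles with a circBase entry were in both libraries in 51 of 89 cases (57.3%) and reached 10 events in 29. Longer unlisted circles were closer to the short unlisted ones, with 1388 of 7316 in both libraries and 57.7% seen once. Of the 821, 304 (37.0%) were the only circRNA of their host, and 245 (29.8%) shared a back-splice site with another circRNA.

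Their share of the library was lower with BPA. The 821 circles had 1209 events with vehicle, 9.37% of the library (8.87% to 9.88%), and 1225 with BPA, 6.97% (6.59% to 7.35%). The log2 ratio of the shares was -0.43 (-0.54 to -0.31). The number of events was thus nearly the same in both libraries, and the BPA library held more events in all. For short circles with a circBase entry the shares were 9.30% and 7.60%, a log2 ratio of -0.29 (-0.40 to -0.18), and for longer unlisted circles 56.8% and 61.3%, a ratio of 0.11 (0.07 to 0.15). Without the circle of Ptchd4 the shares of the short unlisted circles were 8.37% and 6.47%, and without the 12 circles with the most events 6.51% and 5.15%.

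The share differed by span among all exonic circRNAs. The log2 share ratio of all exonic circRNAs was -0.31 up to 300 bases (-0.62 to -0.00), -0.59 from 301 to 500 (-0.73 to -0.46), -0.24 from 501 to 700 (-0.36 to -0.11) and -0.19 from 701 to 1000 (-0.38 to 0.01). It was -0.04 from 1001 to 2000 bases and -0.02 from 2001 to 5000, both with intervals that include 0. It was 0.14 from 5001 to 10000 (0.07 to 0.22), 0.14 from 10001 to 20000 (0.06 to 0.22), 0.19 from 20001 to 50000 (0.08 to 0.29) and -0.01 over 50000 (-0.25 to 0.22), so the values did not rise in every step. Within the short unlisted circles the ratio was -0.28 up to 300 bases (-0.73 to 0.17), -0.57 from 301 to 500 (-0.76 to -0.38), -0.39 from 501 to 700 (-0.61 to -0.17) and -0.30 from 701 to 1000 (-0.53 to -0.07), with no steady order. By spliced length it was -0.49 up to 200 bases (-1.20 to 0.23), -0.47 from 201 to 300 (-0.70 to -0.24), -0.56 from 301 to 500 (-0.73 to -0.39) and -0.12 from 501 to 1000 (-0.37 to 0.14), again with no steady order. Exonic circles spanning over 1000 bases had other values at like spliced length, -0.24 up to 200 bases (-0.62 to 0.14), -0.09 from 201 to 300 (-0.19 to 0.01), 0.04 from 301 to 500 (-0.01 to 0.09) and 0.20 from 501 to 1000 (0.14 to 0.27). The total of events differed between the libraries together with the shares, and its part in them was not tested.

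**Figure D3:**
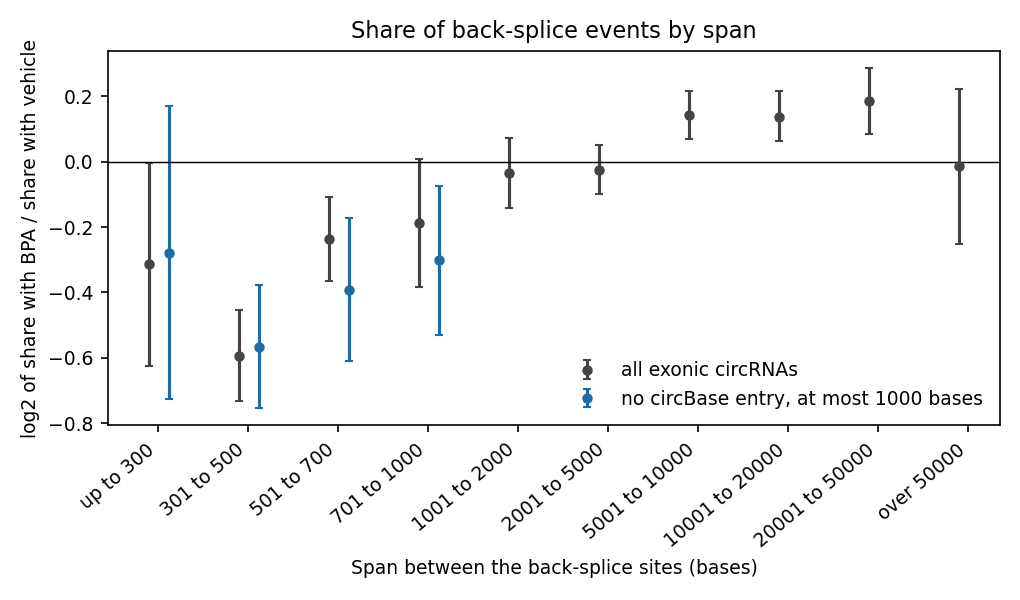
log2 of the share of all back-splice events with BPA over that with vehicle (y axis) in bins of the span in bases (x axis), with exact 95% counting intervals, for all exonic circRNAs and for those of at most 1000 bases without a circBase entry. Points up to 1000 bases lie below 0, some with intervals that reach it, and those from 5001 to 50000 bases lie above it.

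The difference in share was present among circles of different structure and in the pooled events of hosts that gave both short and longer unlisted circles. The 1-exon circles had 600 and 654 events, 4.65% and 3.72% of the libraries, a log2 ratio of -0.32 (-0.48 to -0.16). Circles of 2 or more exons had 577 and 531 events, 4.47% and 3.02%, a ratio of -0.57 (-0.74 to -0.39), so the intervals of both classes overlapped. There were 385 such hosts. In their pooled unlisted exonic events the short circles were 42.0% with vehicle (39.6% to 44.5%) and 33.1% with BPA (31.1% to 35.1%). Hosts were not compared one by one. Circles seen once were a larger share of the BPA library (1.64% against 1.47%), with intervals that overlap. Of all circRNAs seen once the short unlisted ones were 10.3% with vehicle (8.99% to 11.8%) and 8.93% with BPA (7.97% to 9.97%), and these intervals overlap too. Of circRNAs with 10 or more events they were 8.36% (7.67% to 9.09%) and 5.70% (5.19% to 6.25%) of events.

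Single circles were compared where both libraries together held at least 10 events, after TMM scaling (trimmed mean of M-values) over the whole table and adding 0.5 events, and a ratio of at least 2 was counted. Of the 32 short unlisted circles with this depth, 6 were higher with BPA, where 17.7% of all 457 circRNAs were, and 9 were lower, where 10.7% of all were. In percent this is 18.8% higher, near the background, and 28.1% lower. Intervals lay wholly above 0 in 3 of the 32 and wholly below in 6, against 7.88% and 5.69% of all 457. On library totals these counts were 1 and 9 of the 32, and 21 and 37 of the 457. With size factors they were 3 and 4 of the 32, and 70 and 14 of the 457. The median log2 ratio of the 32 was -0.65 and that of all 457 was 0.16. Scaling by library totals gave 4 higher and 11 lower, with medians of -0.82 and -0.01, and median-of-ratios size factors gave 7 and 7, with medians of -0.37 and 0.44. A scaling moves all circles by 1 amount, so it cannot change the gap of 0.81 between the medians. The minimum of events does change it, since with at least 5 events the medians were -0.27 for 96 short unlisted circles and 0.21 for all 1164 circRNAs.

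**Figure D4:**
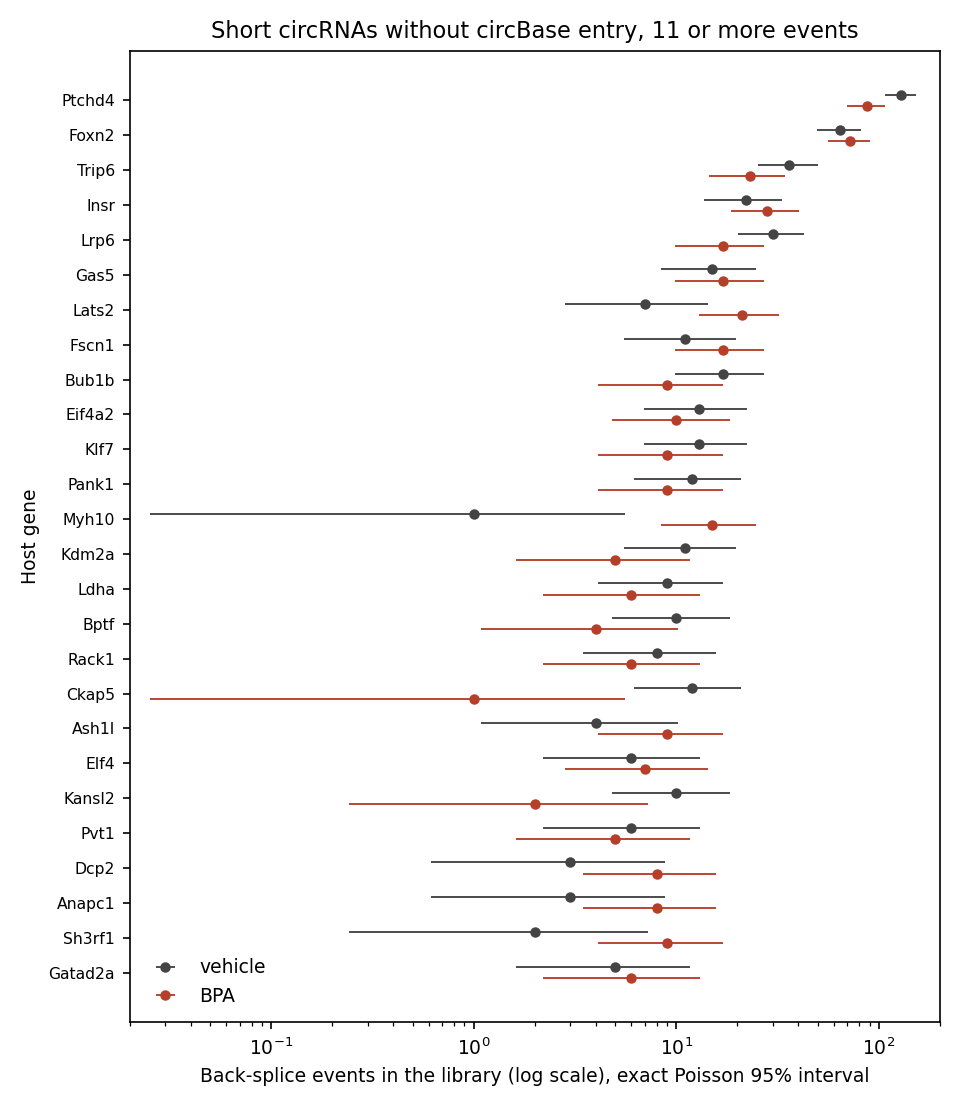
Back-splice events in the vehicle and BPA libraries on a log axis, with exact Poisson 95% intervals, for the 26 short unlisted circles with at least 11 events in both libraries together, ordered by their sum. The circle of Ptchd4 leads with 129 and 87 events, and the intervals of both libraries, before scaling, do not overlap for Ptchd4, Myh10 and Ckap5.

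The 2 most abundant short unlisted circles were single internal exons. Ptchd4, a membrane protein with a patched domain, gave a circle of exon 3 (481 bases) with 129 events with vehicle (108 to 153) and 87 with BPA (69.7 to 107). Its log2 ratio was -0.84 (-1.25 to -0.44), so its interval lay below 0 though the difference was under 2-fold. It held 216 of the 231 events of its host's circRNAs. Foxn2, a forkhead transcription factor, gave exon 2 (551 bases) with 64 and 72 events and a ratio of -0.10 (-0.61 to 0.41). Of these 2 circles, only that of Ptchd4 was lower beyond counting error.

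Circles of membrane receptors came next among 1-exon circles. That of Insr, the insulin receptor, was exon 2 (552 bases) with 22 events with vehicle and 28 with BPA, a ratio of 0.07 (-0.78 to 0.95). Lrp6, a co-receptor of Wnt ligands, gave exon 2 (394 bases) with 30 and 17 events and a ratio of -1.08 (-2.04 to -0.19). The circle of Lrp6 was 2-fold lower under TMM scaling but at -0.80 with size factors, under 2-fold and with an interval that includes 0. The interval of Insr includes 0. The difference between these 2 circles was not tested. Of the other abundant 1-exon circles, Klf7, a Krüppel-like transcription factor, had 13 and 9 events and Pank1, the kinase that begins coenzyme A synthesis, had 12 and 9, both with intervals that include 0. Gas5, a non-coding host of small nucleolar RNAs, had 15 and 17 events, and Eif4a2, which encodes a helicase of translation initiation, had 13 and 10. These last 2 circles are 1 exon only in a transcript that keeps the intron.

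The circles higher with BPA were 18.8% of the 32, near the 17.7% of all 457 circRNAs. Their counts with vehicle were low, which the 2-fold limit makes likely at this depth. Myh10, the heavy chain of non-muscle myosin IIB, gave exon 2 (376 bases) with 1 event with vehicle and 15 with BPA, a ratio of 3.10 (0.93 to 9.03). Pik3r1, the regulatory subunit of class I phosphoinositide 3-kinase, gave exon 2 (714 bases) with 1 and 9 events and 2.39 (0.04 to 8.35). Lats2, a kinase of the Hippo pathway, gave exon 2 (541 bases) with 7 and 21 events and 1.25 (0.02 to 2.79). In each of these 3 the exon holds the start codon. Of the 32 circles 5 hold it, and the others, of Foxn2 (-0.10) and Gatad2a (-0.03), were within 2-fold. The intervals of Pik3r1 and Lats2 lay above 0 by little under TMM scaling, and both include 0 on library totals. The other 3 circles higher with BPA spanned 2 or 3 exons and had intervals that include 0. They were those of Sh3rf1, a ubiquitin ligase that scaffolds JNK signalling, with 2 and 9 events (1.65, -0.38 to 5.15), Anapc1, a subunit of the anaphase-promoting complex, with 3 and 8 (1.01, -0.92 to 3.69), and Dcp2, the mRNA decapping enzyme, with the same counts. Both of the last were under 2-fold on library totals (0.83) and with 1 event added (0.90).

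The circles lower with BPA were mainly of 2 or more exons, 7 of the 9. That of Ckap5 had 12 events with vehicle and 1 with BPA, a ratio of -3.33 (-9.28 to -1.10). Kansl2, a subunit of the NSL histone acetyltransferase complex, had 10 and 2 events and -2.34 (-5.83 to -0.37). Both intervals lay below 0, as did that of Lrp6 under TMM scaling. With size factors the intervals of Lrp6 and Trip6 include 0. Circles of Eif4g1, the scaffold of translation initiation, and Htra1, a secreted serine protease, each had 8 and 2 events and -2.04 (-5.55 to 0.05). Bptf, the largest subunit of the remodeller NURF, had 10 and 4 events (-1.50, -3.72 to 0.20). Bub1b, the spindle checkpoint protein BubR1, had 17 and 9 (-1.15, -2.54 to 0.05), and was under 2-fold with size factors (-0.88). Kdm2a, a histone demethylase named after its values were seen, had 11 and 5 events and -1.34 (-3.29 to 0.23). Trip6, with 36 and 23 events, was just within 2-fold at -0.91 (-1.74 to -0.13), and Fscn1, the actin-bundling protein fascin, had 11 and 17 events and 0.33 (-0.82 to 1.59). Over the 32, the median ratio was -0.37 in 16 circles called 1 exon and -0.86 in 16 of more exons.

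In the authors' deposited table of their own comparison, 2 of the 821 short unlisted circles had a p-value under 0.05, where 0.273% of all 9158 circRNAs did. They were those of Myh10 (0.0105) and Ckap5 (0.0305). The lowest adjusted value in the authors' deposited table was 0.865. The deposited values come from a comparison of 1 library with 1.

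Hosts seldom gave more than 1 short unlisted circle. Of the 734 hosts 657 gave 1, 69 gave 2, 7 gave 3 and Hspg2 gave 5. Hspg2 encodes perlecan, a proteoglycan of basement membranes, and its 5 circles, of 2 or 3 exons between exons 15 and 61, had at most 2 events each. Ckap5 gave 3, of which that with 12 and 1 events held most, the others having 1 and 1, and 0 and 1. Rnf111, a ubiquitin ligase of TGF-β signalling, gave 3 circles of 1 exon, each with vehicle at 0, and 4, 1 and 1 events with BPA. Tnpo2, a nuclear import receptor, gave 3 circles, including one of the 4 that span 5 exons (5 and 1 events), and the others had 2 and 0, and 1 and 0. No direction is read from counts this low.

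By function, hosts were counted in chosen lists of genes. Of all 16870 genes with at least 10 mRNA reads 729 were hosts, a smaller part than in the lists below. The lists were chosen with earlier results known, and enrichment was not tested. Of 30 listed chromatin and transcription genes 10 gave 12 short unlisted circles, with 31 events with vehicle and 30 with BPA. Those with the most were Bptf and Ash1l, a histone methyltransferase, at 4 and 9 events. Of 30 actin and motor genes 6 gave 9 circles with 12 and 21 events, 16 of these in the circle of Myh10, while the circle of the myosin Myo9b had 6 and 3. Of 30 signalling genes 4 gave 4 circles with 5 and 14 events, with Pik3r1 first and the receptor Fgfr1 at 2 and 3. Of 25 genes of the ubiquitin system 7 gave 10 circles with 6 and 10 events, led by Fbxw7, a substrate receptor of SCF ligases, at 1 and 4. Of 25 genes of RNA binding and splicing 7 gave 7 circles with 11 and 5 events, and Eif4g1 held most of them. Genes of matrix and adhesion gave 6 circles with 2 and 7 events, and those of the integrated stress response 3 circles with 2 and 2. None of these lists had more than 2 circles with 10 or more events.

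Host mRNA was set beside each circle to see whether the circle differed from its linear transcript. In bulk RNA, fewer cells that express a gene and less RNA per cell cannot be told apart. Over the 729 host genes of the short unlisted circles with a listed mRNA value, the median log2 ratio of host mRNA (BPA over vehicle, on the scale of the normalised value plus 1) was -0.05. For the 32 circles with 10 or more events the host mRNA median was -0.14, and the difference of circle minus host had a median of -0.36. This difference was 0.21 over all 445 exonic circRNAs with that depth and 0.02 over 29 short circles with a circBase entry. It was at least 1 in 7 of the 32 and at most -1 in 9, and circle and host had the same sign in 16. Over the 445 exonic circRNAs these counts were 86, 45 and 240. The circle ratios here were TMM-scaled and the mRNA ratios kept the authors' scaling, so the differences and counts depend on both. With circles on library totals the median difference of the 32 was -0.54.

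Single cases went apart in both directions. The mRNA of Myh10 had 12107 reads with vehicle and 10103 with BPA, a log2 ratio of -0.37, while its circle was at 3.10. That of Lrp6 had 4682 and 5040 reads and -0.01, while its circle was at -1.08 under TMM scaling. With size factors the interval of this circle includes the host value. In Ptchd4 both were lower, with 1315 and 858 mRNA reads, a ratio of -0.73, and a circle at -0.84. In Kdm2a both were lower as well, with host mRNA at -1.10 and its circle at -1.34. The mRNA of Fscn1 was at -0.81 while its circle was at 0.33, with an interval (-0.82 to 1.59) that just includes the host value.

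**Figure D5:**
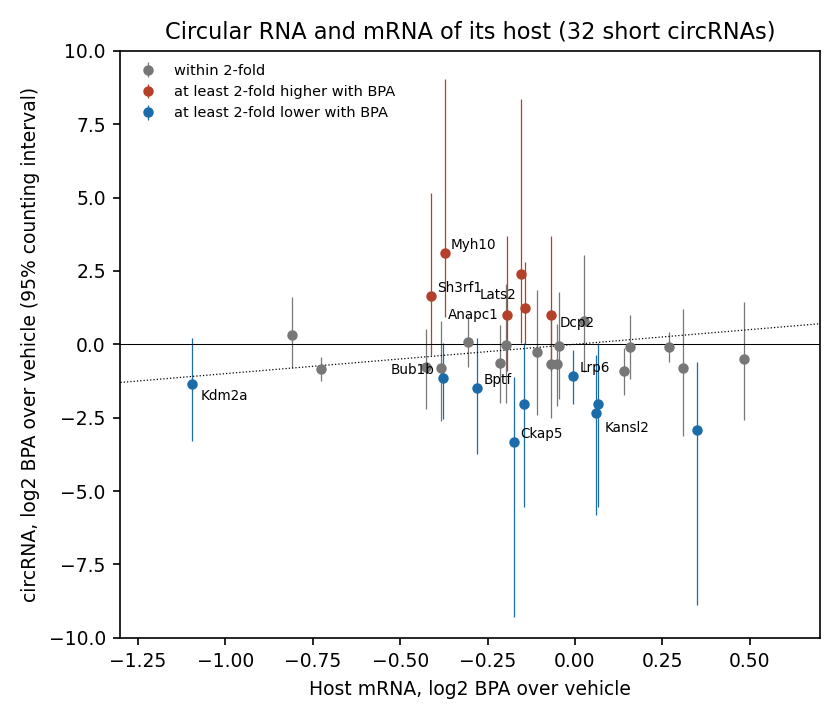
log2 ratio of each circle, BPA over vehicle, with its exact 95% counting interval (y axis) against the log2 ratio of its host's mRNA (x axis) for 32 short unlisted circles; colours mark circles at least 2-fold higher or lower, names are given to those of them with at least 11 events, and the dotted line marks equal ratios. The host mRNA ratios lie between those of Kdm2a at -1.10 and Pvt1 at 0.48, a narrower range than the circles'.

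Factors known to form, bind or degrade circRNA were compared as mRNA. Of 30 listed genes 28 had a value and 26 had at least 10 reads in both libraries together. None of the 26 was 2-fold higher and none 2-fold lower, where 6.88% and 4.61% of all 16870 genes were. Their median log2 ratio was -0.20, and that of all genes 0.02. Adar, which edits double-stranded RNA and opens paired introns, had 1549 and 2922 reads (0.80). Dhx9, a helicase that opens such pairs, had 12759 and 11669 (-0.24), and Hnrnpm, a splicing regulator, 16877 and 13427 (-0.44). Mbnl2, a splicing factor, was itself a host, with mRNA at -0.20 and a circle of exon 2 (619 bases) at 6 and 2 events. Their part in the shares of the circles was not tested.

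Seeds of the 10 most abundant microRNAs were searched in the spliced short unlisted circles on exon edges, since a circle can carry microRNA sites. A seed match is the reverse complement of bases 2 to 8 of the microRNA, on the circle's own strand and across its junction. Mature sequences are from RefSeq and were found for 8 of the 10, miR-151-3p and miR-143-3p having no entry. The 3 shown are the most abundant and those with a match in a circle of 10 or more events, with the seed in capitals.
miR-148a-3p: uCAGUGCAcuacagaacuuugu
let-7f-5p: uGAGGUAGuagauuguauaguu
miR-182-5p: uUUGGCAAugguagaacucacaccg

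Matches were sparse. The site of miR-148a-3p (TGCACTG, 2767490 reads with vehicle and 1214362 with BPA) was in 24 of 766 circles (3.13%), with 0.0902 matches per kb against 0.109 in longer unlisted circles and 0.167 in short circles with a circBase entry. The let-7 site (CTACCTC), which let-7f-5p, let-7i-5p and let-7c-5p share, was in 22 (2.87%), among them the circles of Ptchd4 and Klf7. The site of miR-182-5p (TTGCCAA) was in 42 (5.48%), among them that of Lats2, with 0.152 matches per kb against 0.137 in longer unlisted circles. No circle had more than 2 matches to 1 of these seeds, the highest being 2 to miR-148a-3p in the circle of Cops4, which had 1 event. A match of 7 letters is a description of the sequence and shows no binding.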

How the data were processed

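The submitters' processing notes name STAR for circRNA and mRNA, StringTie for mRNA, Bowtie 1.1.0 for miRNA and the builds GRCm38 and mm10. Not given in the sources used here are the circRNA caller, counter, annotation release and filters, and how circBase was matched. The deposited circRNA and mRNA values are on a log2 scale, as read from the values. For circRNA, 2 to the power of the value was reduced by 1 and divided by 2, which came out whole within 0.001 in all 9158 rows of both libraries and is the back-splice event used here. The sources do not say why an event adds 2. The intervals take each event as 1 independent count, which could not be checked. For mRNA, whole reads were recovered by dividing by 1.03943 (vehicle) and 0.962066 (BPA). The deposited miRNA values were read counts, and TPM columns from the authors were not used. The p-values quoted are the authors' deposited ones, from a test the sources do not name. The design expected counts of events, which were recovered from the log2 values as above.

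Circles were placed on the GENCODE release M21 transcripts listed for them, with exact exon edges, and bases were read from GRCm38.p6 with pysam 0.24.0. A circle was called 1 exon when any listed transcript puts both ends on 1 exon. All 714 circBase coordinates equalled the row's own. Events were scaled with TMM of edgeR 4.0.16 in R 4.3.3 (factors 1.06 for vehicle and 0.942 for BPA), with library totals and DESeq2 1.42.0 size factors (1 and 1) as alternatives. Ratios are BPA over vehicle. Intervals are exact Poisson for counts, exact binomial (Clopper-Pearson) for shares and exact conditional binomial for ratios, from SciPy 1.17.1, and leave out the error of scaling. Since each group had 1 library, conditions were compared without a test. mRNA ratios used the deposited normalised value plus 1, and 10 reads were required in the factor list. The scripts were tested on simulated data.

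The members and lists were chosen with earlier results of these data known. Named were the 12 circles with the most events, up to 6 higher and 6 lower with the largest 2-fold ratios, up to 5 hosts with at least 3 circles, circles beside the span limit, and the first 2 hosts of each list; other names are marked. The circle of 1 host that the rule names is not reported here.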

Additional observations from a re-analysis of the deposited data

How the results depend on the processing

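With 1 library per group no replicate could be left out. No paired analysis was possible because each group has 1 library and the labels carry no replicate numbers. Without the minimum of 10 events, 385 short unlisted circles were 2-fold higher and 328 lower with a median log2 ratio of 0.21, most of them with 1 event; a minimum of 5 gave 19 and 26, and one of 20 gave 1 and 2. A span limit of 500 bases left 369 circles with 4.39% of events with vehicle and 3.06% with BPA, and one of 2000 bases gave 1528 with 15.4% and 13.1%, a fold of 0.854. The following were chosen after seeing the data. Without Ptchd4 the shares were 8.37% and 6.47%, without the 12 most abundant circles 6.51% and 5.15%, and among circles seen once 1.47% and 1.64%. The fold of the shares, 0.744 on library totals, was 0.838 with TMM-scaled totals, and it turned to 1.01 with size factors, which leave the event numbers as they are, and to 1.11 among circles seen once. With at least 10 events 50.0% of circles were 1 exon and 100% lay on exon edges. Of the 25 named circles with 10 or more events 14 were 2-fold apart, and 12 stayed so under each alternative taken alone (totals, size factors, 1 event added), Lrp6 and Bub1b falling under 2-fold with size factors and Anapc1 and Dcp2 with the others. Depth limits every single circle: 478 of 821 rest on 1 event.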
